A study of Mus musculus with 2 samples.

Results

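Kit, the receptor, and Kitl, its ligand, are 2 of the 31057 genes counted in single cells of the newborn mouse ovary. They were chosen as a receptor and ligand pair and followed across 6 cell types that were gated without using either gene. The cells came from untreated CD1 mice 2 days after birth and were sequenced in 2 Chromium libraries, in which reads fall near the 3′ end of a transcript and carry the barcode of their droplet and a molecular tag (UMI), so that UMIs count molecules rather than reads. Each library pooled the ovaries of several pups of a single female, so the libraries are the replicates (n = 2), no groups of mice were compared, and p-values measure only the spread between these pools. The 4094 barcodes of replicate 1 summed to 54471790 UMIs (median 8315.5 per barcode), the 4847 of replicate 2 to 59074480 (median 5798), and 21 barcodes occurred in both.

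KIT is a receptor tyrosine kinase of the class III family, which signals through the PI3K, RAS and JAK-STAT routes once its ligand, also called stem cell factor, brings receptors together. In the ovary, oocytes carry the receptor and the granulosa cells around them make the ligand. The pair is known for the survival of primordial germ cells and for the awakening of primordial follicles, in which PI3K signalling moves the transcription factor FOXO3 out of the oocyte nucleus. Outside the ovary, KIT marks mast cells, melanocytes, blood progenitors and the pacemaker cells of the gut.

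Kit (ENSMUSG00000005672) lies at chr5:75574916-75656722 and Kitl (ENSMUSG00000019966) at chr10:100015630-100100416, both on the plus strand of GRCm38 in GENCODE M21, and 0 other annotated genes overlap either. Both genes make protein forms that differ by a short coding segment, printed here from the GENCODE transcripts because the UMIs cannot tell these forms apart. In Kitl it is exon 6 of transcript Kitl-202 (chr10:100080857-100080940, 84 bases), which Kitl-201 skips. The exon belongs to the form of the ligand that can be shed from the cell surface. It ends 4653 bases before the 3′ end of that transcript. In Kit it is the end of exon 9 of Kit-201 (chr5:75639147-75639158, 12 bases), which Kit-204 lacks, 3568 bases before the 3′ end. Capitals mark the alternative segment and lower case the 12 neighbouring coding bases on either side, from 5′ to 3′.
Kitl exon 6: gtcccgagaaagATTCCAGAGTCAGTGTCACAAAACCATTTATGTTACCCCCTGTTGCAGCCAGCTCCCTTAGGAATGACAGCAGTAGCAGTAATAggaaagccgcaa
Kit exon 9 end: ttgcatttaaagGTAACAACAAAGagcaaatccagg
Every level of Kit or Kitl given here therefore sums all forms of the gene.

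After filters, 3642 and 4371 cells remained. A cell took a type when it passed exactly 1 gate, set as a minimum of UMIs of marker genes: Ddx4, Dazl and Ooep for germ cells, Foxl2, Fst and Wnt6 for granulosa cells, Col1a2 and Dcn for interstitial cells, Upk3b for mesothelial cells, Cdh5 for endothelial cells and Ptprc for immune cells. This gave 186 and 470 germ cells, 1551 and 525 granulosa cells, 1126 and 1846 interstitial cells, 8 and 20 mesothelial cells, 58 and 24 endothelial cells, and 7 and 11 immune cells in replicates 1 and 2. All 6 markers kept outside the gates were highest in their own gate in both libraries for the interstitial, mesothelial, endothelial and immune gates, against 5 of 6 for germ cells and 2 of 6 for granulosa cells, since markers such as Lgr5 and Gata4 were as high or higher in the mesothelial gate. Most mesothelial cells also passed the granulosa or interstitial gate. Letting Upk3b decide the type raised their number to 174 and 256.

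Kit was highest in germ cells in both libraries. Germ cells held 2926 Kit UMIs in replicate 1 and 2479 in replicate 2, that is 224 (95% interval 216 to 233) and 149 (144 to 155) counts per 1000000 UMIs of the summed cells (CPM). The intervals are exact Poisson intervals that cover counting error only, as do the exact binomial intervals of shares. The pools thus differed by more than counting error, with a mean of 187 ± 53.1 CPM (SD, n = 2). Single germ cells carried a median of 14 Kit UMIs in replicate 1 and 3 in replicate 2, up to 53 and 29, beside a median depth of 75378.5 and 35221 UMIs. Of all Kit UMIs in the cells used, 76.4% and 58.2% lay in the germ gate. That gate held 5.11% and 10.8% of the cells but 25.4% and 29.2% of the UMIs of all genes. Most of the rest, 20.7% and 39.2%, lay in cells that passed several gates. Those cells held 22.4% and 40.8% of the UMIs of all genes.

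Endothelial cells, which line blood vessels, were the other type with a clear Kit level. They held 40 Kit UMIs in 58 cells and 15 in 24 cells, 44.8 (32.0 to 60.9) and 57.1 (31.9 to 94.1) CPM. At least 1 Kit UMI was found in 39.7% and 45.8% of them. Both libraries lay below both germ values and above both granulosa and interstitial values. Markers of other Kit-bearing cells varied there. Mast cell genes had 1 and 0 UMIs over 7 genes and melanocyte genes 0 and 0 over 4. Of the genes of gut pacemaker cells, Etv1 had 8 and 1 UMIs and Ano1 2 and 0, and Etv1 was also found in germ, granulosa and interstitial cells. Of the blood progenitor genes, Spi1 had 0 in both libraries, but Gata2 stood at 24.6 and 15.2 CPM, from 22 and 4 UMIs, above its level in germ, granulosa and interstitial cells, and Cd34, which endothelium also expresses, at 1055 and 666 CPM. The part of such cells in the Kit level was not tested. Germ cell RNA was low in the same cells, with 3 and 0 UMIs of the zona pellucida gene Zp3.

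Granulosa and interstitial cells held little Kit. In granulosa cells it was 25 UMIs in 1551 cells and 22 in 525, 1.42 (0.922 to 2.10) and 3.70 (2.32 to 5.60) CPM. Interstitial cells, the collagen-rich stroma, held 27 UMIs in 1126 cells and 56 in 1846, 3.46 (2.28 to 5.04) and 5.61 (4.24 to 7.29) CPM. The ranges of these types overlapped across libraries. Zp3 had 86 and 26 UMIs in granulosa cells and 36 and 63 in interstitial cells. The ratio of Kit to Zp3 was 0.185 and 0.190 in germ cells. The ratio of Kit to Zp3 thus lay above that of germ cells by 1.57- and 4.46-fold in granulosa cells and by 4.05- and 4.68-fold in interstitial cells. Measured against 6 germ cell markers summed, the ratio was 0.0365 and 0.0287 in germ cells and 0.0424 and 0.0741 in granulosa cells. In interstitial cells it was 0.104 in both libraries. The granulosa value of replicate 1, from 25 Kit UMIs, was near that of germ cells. Whether it exceeds counting error was not tested. The part of stray germ cell RNA in the Kit level of granulosa and interstitial cells was not tested either.

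Mesothelial and immune cells were too few to place. Mesothelial cells held 0 and 1 Kit UMIs, and immune cells 0 and 2. The interval of a count of 0 reaches 49.2 CPM in the mesothelial cells and 56.7 CPM in the immune cells of replicate 1. With Upk3b deciding the type, mesothelial cells held 6 and 8 Kit UMIs, 1.95 and 1.84 CPM, close to the granulosa level.

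**Figure D1:**
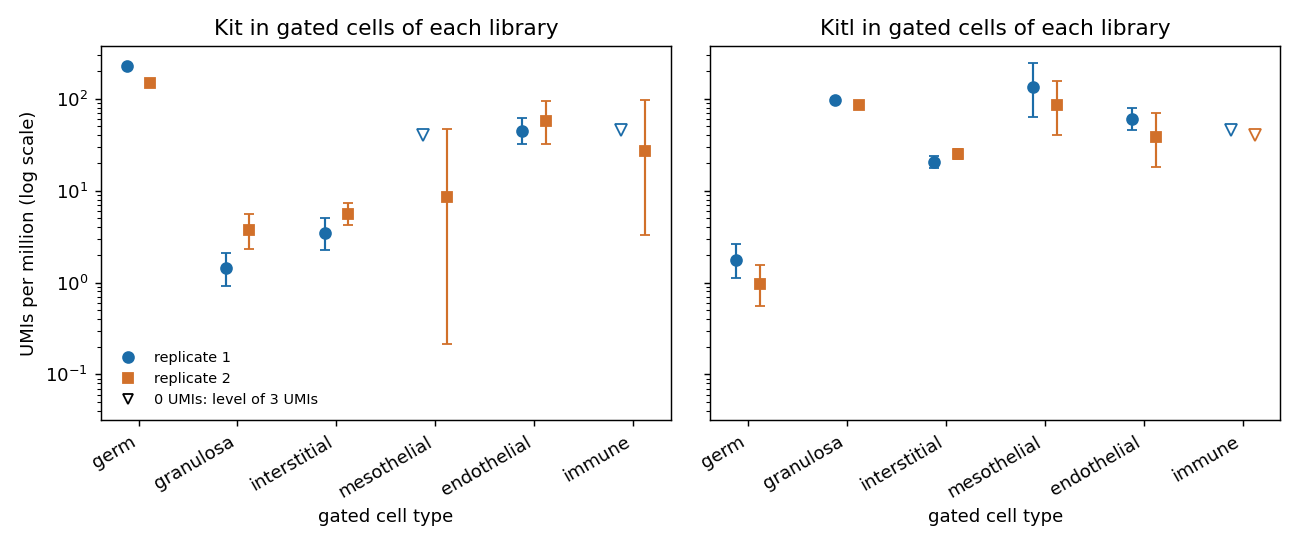
CPM (log axis) of Kit (left) and Kitl (right) in the gated cells of each type, with replicate 1 as circles and replicate 2 as squares; bars are exact 95% Poisson intervals and open triangles mark the level of 3 UMIs where none was found. Kit peaks in germ cells at 224 and 149 and Kitl lies at 96.3 and 85.7 in granulosa cells.

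In 1 edgeR quasi-likelihood fit over the 12 sums of type and library, a call needed a Benjamini-Hochberg adjusted p under 0.05 over all 13674 genes tested and more than a 2-fold change. Kit was higher in germ cells than in the mean of the other types by a log2 fold change of 4.60 (SE 0.26, adjusted p = 1.79e-12), which was 8.64 without replicate 2, where mesothelial and immune cells held 0 Kit UMIs in the library left. Of all genes, 32.8% were called higher in germ cells, so that a call alone does not set Kit apart. Germ cells exceeded granulosa cells by 6.45 (SE 0.34, adjusted p = 6.65e-13 by edgeR) and endothelial cells by 1.91 (SE 0.33, adjusted p = 4.15e-05 by edgeR), contrasts in which 28.3% and 28.1% of genes were called higher. Endothelial cells in turn exceeded granulosa cells: the log2 fold change of granulosa against endothelial cells was -4.53 (SE 0.44, adjusted p = 6.74e-08 by edgeR), where 10.2% of genes were called lower, and that of interstitial against endothelial cells was -3.39 (SE 0.41, adjusted p = 1.51e-06 by edgeR), where 9.47% were. The granulosa against endothelial value was -3.86 without replicate 1.

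In all, 8 of 15 pairs of types were called for Kit. Germ cells were higher than each of the other 5 types, where 29.7% of genes were called higher against interstitial, 16.5% against mesothelial and 16.2% against immune cells, and endothelial cells were higher than granulosa and interstitial cells. With the library as a block a further pair passed, mesothelial below endothelial cells, whose adjusted p by edgeR went from 0.0807 to 0.00805. The last pair, granulosa against interstitial cells, was close to the threshold, with a log2 fold change of -1.14 (SE 0.39, adjusted p = 0.0251 by edgeR, where 13.0% of genes were called lower). It was not called by DESeq2 (-0.95, adjusted p = 0.124), with looser gates (-1.03, adjusted p = 0.0571) or with cells thinned to 2000 UMIs (-0.91, adjusted p = 0.220), and it was -0.63 without replicate 1. The order of Kit levels was therefore germ, then endothelial, then interstitial and granulosa cells, and these last neighbours did not differ beyond their spread under every setting.

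Germ cells are far deeper than the others, so shares of cells with a UMI were also taken after every cell was thinned to 2000 UMIs. Before thinning, 92.5% and 73.0% of germ cells had a Kit UMI, against 1.61% and 4.19% of granulosa cells and 2.40% and 2.87% of interstitial cells. After thinning, 39.6% and 29.0% of germ cells did, against 5.17% and 16.7% of endothelial cells, 0.388% and 0.960% of granulosa cells and 0.805% and 1.17% of interstitial cells. Germ cells kept the highest share in both libraries at equal depth. The endothelial values rest on 3 and 4 cells, with intervals from 1.08% to 14.4% and from 4.74% to 37.4%. Thinning left out 4 and 70 germ cells.

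**Figure D2:**
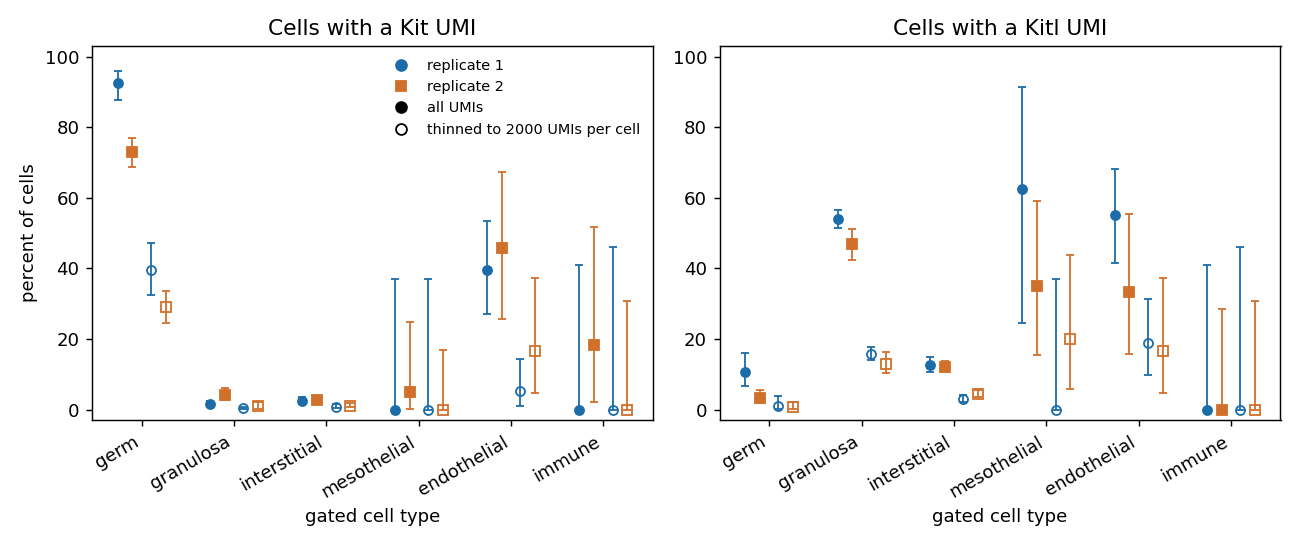
Percent of gated cells with at least 1 UMI of Kit (left) or Kitl (right) per type and library, before (filled) and after (open) thinning every cell to 2000 UMIs; bars are exact 95% binomial intervals. Germ cells hold the highest Kit share both ways, 92.5% and 73.0% before and 39.6% and 29.0% after.

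Among germ cells, the libraries differed on how Kit varied with the RNA content of the cell. Germ cells of at least 20000 UMIs had 226 and 148 CPM of Kit. Those below held 75.0 CPM in replicate 1, from 7 UMIs in 17 cells, and 170 CPM in replicate 2, from 155 UMIs in 211 cells. The libraries thus went opposite ways, and the difference was not called (log2 fold change 0.35, SE 0.22, adjusted p = 0.487 by edgeR). In this contrast 279 of 11734 genes were called (2.38%), or 163 with the library as a block. The Kit value was -0.13 without replicate 1 and 1.63 without replicate 2. Among the 178 genes called lower in RNA-rich cells were Cst12, Wfdc10, Igfbp5, Cdc42ep5 and Hba-a1, a haemoglobin gene of red blood cells. Cst12 and Cdc42ep5 were at 1.24 and 1.70 CPM in the RNA-rich and 0 in the RNA-poor cells of replicate 1, so their calls rest on replicate 2. Among the 101 called higher were Snx29, Iffo2, Atxn7l2, Lrp5 and Col25a1. All of these were at 0 in the 17 RNA-poor cells of replicate 1. That sum is small, with 7 Kit UMIs making 75.0 CPM, so a count of 0 there says little.

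By depth, Kit was 75.7 and 91.9 CPM in cells of 10000 to 20000 UMIs, from 3 and 23 cells. In cells of 80000 UMIs or more it was 237 and 158 CPM. In cells under 10000 UMIs it was 74.1 CPM from 3 UMIs in replicate 1 but 215 (179 to 256) CPM in replicate 2. At 2000 UMIs a cell, replicate 2 had 191 (139 to 255) CPM in cells under 10000 UMIs and 206 (113 to 345) CPM in cells of 80000 or more, and replicate 1 had 50.0 CPM, from 1 UMI, and 286 (208 to 384) CPM. The order of the bins in replicate 2 thus changed with thinning, within wide intervals. Thinning also left out cells under 2000 UMIs, so 118 of the 188 cells of that library under 10000 UMIs remained. The bins of replicate 1 under 20000 UMIs rest on too few UMIs to be ranked.

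RNA-rich germ cells were also divided at the median of Zp3, a gene of growing oocytes. Kit was 250 CPM in Zp3-high and 192 CPM in Zp3-low cells of replicate 1, and 153 against 142 CPM in replicate 2. It was higher in the Zp3-high cells of both libraries, by 1.30- and 1.07-fold, but the libraries lay further apart than the states. The log2 fold change of 0.27 (SE 0.22) was not called (adjusted p = 0.522 by edgeR), where 198 of 11908 genes were called (1.66%). With the library as a block, the adjusted p by edgeR was 8.04e-04 at a log2 fold change of 0.26, still under 2-fold, and 634 genes were called. In the same contrast the oocyte genes Zar1l and Oosp1 were called higher, by 6.87 and 6.38 on the log2 scale. Tex101 and Tsga8 were called lower, by -4.60 and -2.23. Zar1l was at 2.01 and 2.03 CPM in the Zp3-high cells and 0 in the Zp3-low cells. Its fold thus depends on the small prior count added in the fit. Oosp1 was at 8.84 and 7.56 CPM against 0.183 and 0 CPM.

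**Figure D3:**
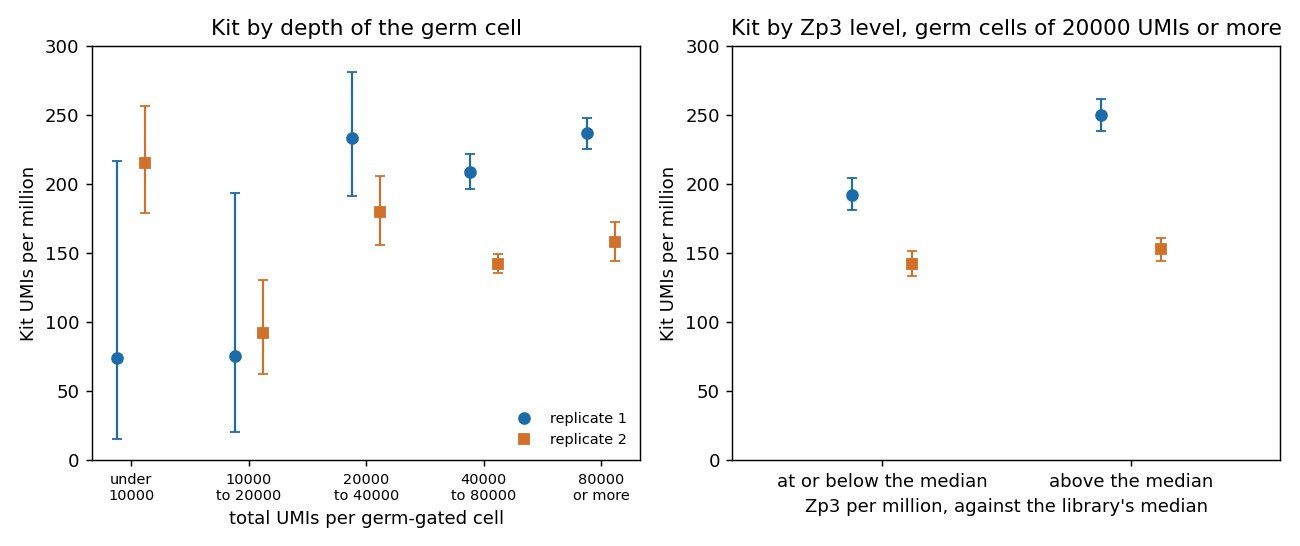
Kit CPM in germ cells by the total UMIs of the cell (left) and by Zp3 state among cells of 20000 UMIs or more (right), per library, with exact 95% Poisson intervals. In replicate 2 the shallowest cells are highest at 215 before thinning, and the Zp3-high cells exceed the Zp3-low cells in both libraries, 250 against 192 and 153 against 142.

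Kitl was low in germ cells, where Kit was highest, and high in granulosa cells. Granulosa cells held 1691 Kitl UMIs in 1551 cells and 509 in 525, 96.3 (91.8 to 101) and 85.7 (78.4 to 93.4) CPM, with a mean of 91.0 ± 7.55 (SD, n = 2). At least 1 Kitl UMI was found in 54.1% and 46.9% of them, with up to 22 in a single cell. Germ cells held 23 and 16 Kitl UMIs, 1.76 (1.12 to 2.65) and 0.964 (0.551 to 1.57) CPM. The granulosa gate thus stood far above the germ gate in both libraries. It held 65.1% and 32.9% of all Kitl UMIs in the cells used, beside 34.2% and 10.4% of the UMIs of all genes. Cells that passed several gates held 25.1% and 47.3% of the Kitl UMIs, more than the granulosa gate in replicate 2. Their share of the UMIs of all genes was 22.4% and 40.8%, near their Kitl share.

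Kitl was not limited to granulosa cells. Mesothelial cells, the surface layer of the ovary, held 10 UMIs in each library, 133 (63.9 to 245) and 85.0 (40.8 to 156) CPM. Where Upk3b decided the type, 359 and 371 UMIs gave 117 and 85.1 CPM, with a Kitl UMI in 75.9% and 62.9% of the cells. The mesothelial and granulosa ranges overlapped either way. Endothelial cells held 54 and 10 Kitl UMIs, 60.4 (45.4 to 78.8) and 38.0 (18.2 to 70.0) CPM. Interstitial cells followed with 161 and 251 UMIs, 20.6 (17.6 to 24.1) and 25.1 (22.1 to 28.5) CPM. These lay below both endothelial values and above both germ values. Immune cells held 0 Kitl UMIs in either library, with intervals up to 56.7 and 50.1 CPM in their 7 and 11 cells.

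Kitl was higher in granulosa cells than in interstitial cells by a log2 fold change of 1.94 (SE 0.22, adjusted p = 5.39e-07 by edgeR), a contrast in which 14.4% of genes were called higher. Against germ cells it was -6.05 for germ minus granulosa (SE 0.29, adjusted p = 3.73e-13 by edgeR), where 30.9% were called lower. Granulosa and mesothelial cells did not differ detectably, at -0.03 (SE 0.38, interval -0.78 to 0.73, adjusted p = 0.997 by edgeR). Granulosa cells lay 0.71 (SE 0.28, interval 0.17 to 1.26) above endothelial cells, which was not called (adjusted p = 0.0632 by edgeR, and 0.0254 with the library as a block, both under 2-fold). Interstitial cells were lower than mesothelial cells by -1.97 (SE 0.44, adjusted p = 0.00568 by edgeR) and lower than endothelial cells by -1.23 (SE 0.29, adjusted p = 0.00355 by edgeR), where 3.31% and 9.47% of genes were called lower. The first of these was not called with looser or pure gates or with thinned cells, and the second was -0.49 without replicate 1.

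In all, 10 of 15 pairs of types were called for Kitl. Germ cells were lower than interstitial, mesothelial and endothelial cells too, where 29.8%, 13.0% and 22.5% of genes were called lower. A further 3 set a type against the immune cells, whose Kitl is 0, so their fitted size depends on the prior count, and 7.75%, 3.4% and 5.35% of genes were called higher in granulosa, mesothelial and endothelial cells there. Set against the level of 3 UMIs over both immune sums (21.6 CPM), mean Kitl was 4.21 times as high in granulosa, 5.05 times in mesothelial and 2.28 times in endothelial cells. These are ratios of means and not lower bounds. The endothelial interval of replicate 2 started at 18.2 CPM, below that level. The contrast of granulosa cells with the mean of the other types was 4.15 (SE 0.36, adjusted p = 1.23e-08 by edgeR, where 19.2% of genes were called higher) and 2.17 once the immune sums were left out. The order of Kitl was thus mesothelial and granulosa cells, then endothelial, then interstitial, then germ cells, in which no pair among the mesothelial, granulosa and endothelial cells was called.

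At 2000 UMIs a cell, 15.8% and 13.1% of granulosa cells had a Kitl UMI, against 19.0% and 16.7% of endothelial cells and 2.95% and 4.47% of interstitial cells. Germ cells had 10.8% and 3.40% before thinning and 1.10% and 0.75% after, from 2 and 3 cells. The endothelial share overlapped the granulosa share at equal depth. Interstitial cells kept a share above that of germ cells in both libraries. Their ratio of Kitl to Amhr2, a granulosa gene, was 2.27 and 2.20, against 0.179 and 0.167 in granulosa cells. Germ cells also lay above granulosa cells, at 1.05 and 0.327, from 23 and 16 Kitl UMIs. Amhr2 was at 539 and 513 CPM in granulosa cells but also at 320 and 544 CPM in mesothelial cells. Over 6 granulosa markers summed, the ratio of Kitl was 0.127 and 0.119 in interstitial and 0.0427 and 0.0379 in granulosa cells. In germ cells it was 0.235 and 0.0899. These markers include Gata4, which interstitial cells express too. In endothelial cells Kitl had 54 and 10 UMIs beside 7 and 1 of Amhr2. The part of stray granulosa RNA in these Kitl levels was not tested.

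Granulosa cells were divided by Amh and Inhbb, genes of the hormones anti-Müllerian hormone and inhibin/activin that rise as follicles start to grow. Kitl was 109 (102 to 115) CPM in the 779 cells of replicate 1 with a UMI of either gene and 79.5 (73.2 to 86.2) CPM in the 772 without. In replicate 2 it was 111 (98.4 to 125) CPM in 173 cells and 66.5 (58.1 to 75.8) CPM in 352. Both positive sums lay above both negative sums, by 1.37- and 1.67-fold within the libraries. The log2 fold change of 0.58 (SE 0.14) had an adjusted p of 0.155 by edgeR, in a contrast with 59 of 12030 genes called (0.49%). With the library as a block it was 0.56 with an adjusted p of 5.80e-06, which passes the p but not the 2-fold threshold, and 896 genes rather than 59 were called. The same held for at least 2 UMIs of the genes (0.81, adjusted p = 0.0347 by edgeR) and no filter (0.60, adjusted p = 0.0288 by edgeR). By edgeR the adjusted p was 0.102 for Amh alone, 0.178 for Inhbb alone, 0.154 with doublets kept and 0.159 with RLE size factors. By DESeq2 it was 0.240. Positive cells were deeper, with medians of 11317 and 12434 UMIs against 8335.5 and 7406.5. With every cell thinned to 2000 UMIs before the split, the difference was 0.43 (SE 0.28, adjusted p = 0.684 by edgeR). The libraries then parted, with 99.4 (76.7 to 127) against 91.3 (79.7 to 104) CPM in replicate 1 and 134 (79.6 to 212) against 66.1 (50.4 to 85.1) CPM in replicate 2.

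Kitl was highest in the granulosa cells richest in Amh, given here as a description. In replicate 1 it was 84.8 CPM at 0 Amh UMIs, 84.1 at 1, 110 at 2 to 4 and 142 (126 to 159) at 5 or more. In replicate 2 the same steps gave 69.1, 116, 118 and 211 (164 to 266) CPM, the last from 16 cells. A single cell with 22 Kitl UMIs stood in the top step of each library, and without it the top steps were 134 and 158 CPM, still the highest. Cells with both genes had 135 and 143 CPM, cells with Amh alone 82.7 and 129, and cells with Inhbb alone 104 and 76.9. The libraries disagreed on which gene alone went with more Kitl.

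The other genes called in this contrast were led by Sema3g, a semaphorin, Ihh, the hedgehog ligand of growing follicles, and Tox2, at log2 fold changes of 4.21, 4.09 and 3.41, after Amh and Inhbb, which made the split. Next came Kif2c (3.17), Plk1 (3.04), Vcan (2.99), Pimreg (2.96), Spc25 (2.90) and Aspm (2.87), of which all but Vcan act in cell division. The part of dividing cells in the Kitl difference was not tested. The 3 genes called lower were Rnd1 (-2.37), Lhx9 (-1.19) and Rin2 (-1.10). Lhx9 is a transcription factor of the early gonad. Kit itself was at 1.58 and 2.74 CPM in the positive cells and 1.22 and 4.43 CPM in the negative cells, from 7 to 16 UMIs a sum, and the libraries went opposite ways. In clusters built without Kit and Kitl, Kitl spanned 72.2 to 155 CPM over 6 granulosa clusters in replicate 1 and 51.5 to 145 CPM in replicate 2, and the same 2 clusters were the highest in both.

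**Figure D4:**
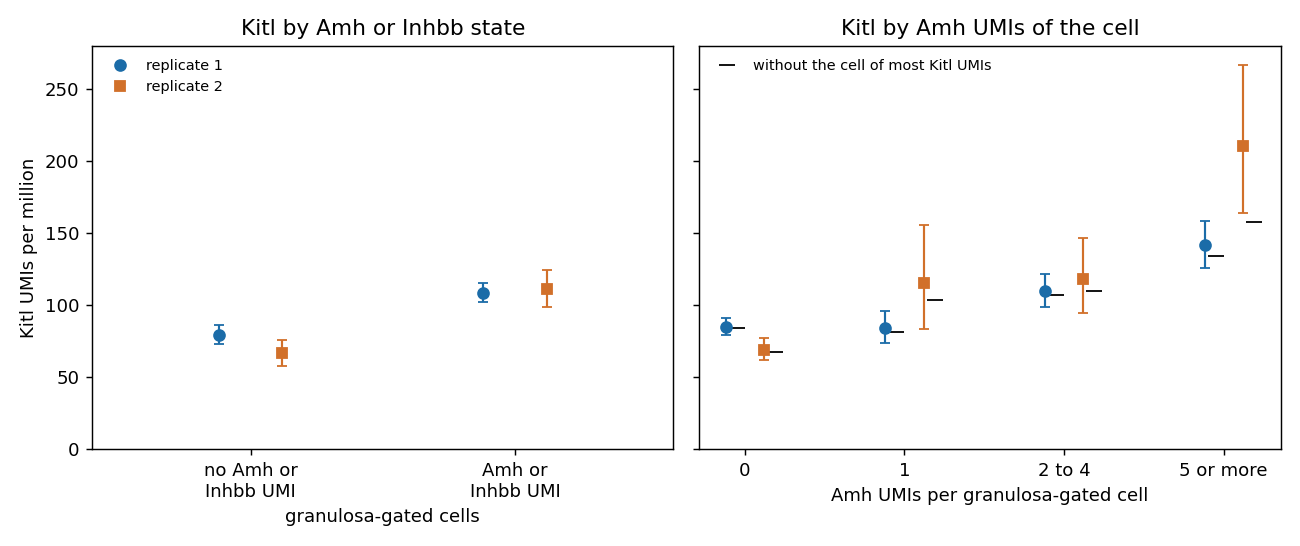
Kitl CPM in granulosa-gated cells with or without a UMI of Amh or Inhbb (left) and by the number of Amh UMIs in the cell (right), per library, with exact 95% Poisson intervals; short black lines leave out the cell with most Kitl UMIs in each group. Both positive sums, 109 and 111, lie above both negative sums, 79.5 and 66.5.

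Cells with UMIs of both receptor and ligand were few where either gene was low. Among granulosa cells, 10 of 1551 and 9 of 525 had both, and these were 10 of the 25 and 9 of the 22 cells with a Kit UMI, beside 54.1% and 46.9% of all granulosa cells with Kitl. Among interstitial cells 3 of 1126 and 6 of 1846 had both. Germ cells with both were 20 of 186 and 15 of 470, where nearly every germ cell with a Kitl UMI also had Kit. Endothelial cells held both in 13 of 58 and 5 of 24 cells, or 22.4% and 20.8%. Of these endothelial cells, 23 and 11 had a Kit UMI and 32 and 8 a Kitl UMI. Whether the 2 genes occurred together more often than these counts alone would give was not tested. Of the droplets that passed the germ and granulosa gates together, 3 of 31 and 53 of 159 held both.

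Cells were also divided by the member itself after thinning, a split with little power. On simulated counts, by adjusted p alone without the fold threshold, the granulosa split recovered 26% of 2-fold and 78% of 4-fold changes. The interstitial split recovered 3% and 12%, so that few calls do not show that few genes differ. Between granulosa cells with and without a Kitl UMI, 0 of 7640 other genes (0.0%) were called by edgeR or DESeq2, with 124 and 3 genes at an unadjusted p under 0.05. With the library as a block 3 were called (Derl3, Hba-a1 and Hbb-bs). Between interstitial cells with a Kit UMI, only 9 and 21 cells, and those without, 3 of 8488 genes were called, all lower (0.0353%): the haemoglobin genes Hba-a1 and Hbb-bs, and Dlk1, a Notch-like surface protein, from 552 at an unadjusted p under 0.05. Dlk1 was at 944 and 833 CPM in the cells with Kit and 1906 and 1312 CPM in those without. Of the 2880 Hba-a1 UMIs in the Kit-negative cells of replicate 2, 2819 came from 20 cells. DESeq2 instead called Zp3 alone, higher in the cells with Kit, at 55.6 and 95.2 CPM against 6.76 and 5.09 CPM, from 1 and 4 UMIs. The germ cell gene Ooep had 0 UMIs in the cells with Kit, with intervals up to 205 and 87.8 CPM. It was at 11.3 and 26.0 CPM in those without.

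The genes whose levels were most like those of Kit over the 12 sums, by Pearson correlation of log2(CPM + 1) among 9054 genes of at least 10 CPM on average, were Dbf4 (0.931), Psmg1 (0.921), Ipmk (0.910), Mtmr14 (0.903) and Ube2c (0.903). Dbf4 and Ube2c act in the cell cycle and Ipmk phosphorylates inositol phosphates. Those most like Kitl were Mycn (0.986), Vav2 (0.983), Gja1 (0.983), Timp1 (0.982) and Serpinb1a (0.974). Gja1 encodes a connexin, the main gap junction protein between granulosa cells, at 392 and 178 CPM there and 0.844 and 0.723 CPM in germ cells. All 5 genes like Kitl were at 0 in both immune sums, as Kitl was, and the 12 points share 2 libraries.

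Of 86 genes of the Kit pathway, 82 were tested. In germ cells 21 were called higher and 11 lower than in the mean of the other types, or 25.6% and 13.4%, against 32.8% and 11.3% of all genes, with a median log2 fold change of 0.03 against 0.60. In granulosa cells 16 were higher and 2 lower, or 19.5% and 2.44%, against 19.2% and 2.31%, with a median of 0.45 against 0.56. In endothelial cells 18 were higher and 4 lower, or 22.0% and 4.88%, against 11.8% and 2.27% of all genes, with a median of 0.23 against 0.25. The shares in granulosa cells lay near those of all genes. In germ cells the share of members called higher was somewhat below that of all genes, a difference that was not tested. The number higher ran from 12 with thinning to 27 with pure gates. The shares of all genes are those of the main setting, so this range is not set against them. In endothelial cells more were called both ways, though only 4 were lower, and this difference was not tested either. The endothelial counts were added to the planned germ and granulosa counts and were taken at the main setting only. Of the receptor-proximal genes, 5 of 14 were higher and 0 lower in endothelial cells. Folds of genes at 0 in both libraries of a type depend on the prior count.

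By role, all 5 listed oocyte transcription factors were called higher in germ cells, which is given by the choice of genes known from oocytes, since Figla is also among the germ cell markers. They included Nobox at 601 and 588 CPM (log2 fold change 9.90), Sohlh2 at 64.6 and 64.1 CPM (9.71) and Figla at 1139 and 1086 CPM (8.69). Lhx8 (7.94) and Sohlh1 (6.94) completed them, the latter at 757 and 725 CPM. In the PI3K route 8 of 22 tested genes were higher and 1 lower, or 36.4% and 4.55%, near the share of higher genes among all. Foxo3 was among the higher ones, at 125 and 132 CPM (2.16, adjusted p = 8.38e-09 by edgeR). Of the adaptors and kinases that bind the receptor, 0 of 14 were higher and 4 lower (28.6%), against 32.8% and 11.3% of all genes. Among the lower ones were Lck (-6.54), Src (-4.68) and Shc1 (-2.44), against a mean that includes the few immune cells. Of the 4 tested enzymes that can release surface ligands 3 were lower, Mmp2 (-3.45) among them, as was the adaptor Sh2b2 (-2.74). Over the whole list, the number lower in germ cells ran from 3 with pure gates to 30 against the summed others. No share of all genes is given for those settings.

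In granulosa cells the members called higher with the largest folds were Jak2 (log2 fold change 4.47), the growth factors Pdgfa (4.05) and Pdgfc (4.03), Prkca (3.20) and Stat5b (3.07). All 5 were at 0 in a type, and without the immune sums they were 3.06, 1.94, 2.63, 1.52 and 1.49. Sh2b3 (-1.99) and Mmp2 (-1.94) were the 2 called lower. Jak2 was higher in germ cells as well, at 43.4 and 38.3 CPM there and 33.8 and 20.2 CPM in granulosa cells.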

How the data were processed

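Per the labels and the methods, the authors processed reads with Cell Ranger 3.0.2 and the GRCm38 mouse genome and deposited raw UMI counts for each gene and barcode, with no normalization. The labels and the methods name different versions of the capture kit. From these counts, barcodes with under 500 genes or over 10% mitochondrial UMIs were dropped, and 96 and 93 doublets were removed with Scrublet in scanpy 1.11.5, at the automatic threshold of replicate 1 for both libraries. Kit, Kitl, the gates and the gene lists were chosen with earlier results of these data known. Germ and interstitial gates needed 3 UMIs and the others 2. UMIs were summed per type and library and fitted in edgeR 4.0.16 (R 4.3.3; filterByExpr, TMM, quasi-likelihood), with DESeq2 1.42.0, normalizations, filters, gates, clusters, thinning and left-out libraries as alternatives. Added after seeing the data were fits without immune sums and with Upk3b deciding the type. Named genes were the members, the 5 genes most like each, and up to 5 called genes of largest fold per direction in each list or split, unnamed gene models passed over. Foxo3, Derl3, Spi1, Gata2, Etv1, Ano1, Lgr5, Gata4 and the gene called by DESeq2 were named after their values were seen. So were Kif2c, Plk1, Vcan, Pimreg, Spc25 and Aspm. On simulated counts with 200 changed genes among 12894 in the fit of cell types, 53% of 2-fold and 84% of 4-fold changes passed an adjusted p under 0.05. Of the genes that passed, 10.5% were not changed genes. The fold threshold of a call was not applied there. The simulated sums had a fixed spread, no pairing by library and, before the changes, the same mean profile in all types. Sums of a library come from the same pool of pups, so libraries pair the sums. Their deviations correlated by 0.0155 to 0.348 between cell types, 0.670 between Amh or Inhbb states, 0.696 between Zp3 states, 0.0797 between germ cells of high and low RNA content, and 0.231 and 0.0356 in the splits by Kitl and Kit.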

Additional observations from a re-analysis of the deposited data

How the results depend on the processing

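Leaving out a library leaves no residual degrees of freedom, so those values are folds with no test. By fold alone, 13 to 14 pairs of types passed 2-fold for Kit and 12 to 13 for Kitl, and the pathway list gave 30 to 35 genes higher and 20 to 21 lower in germ cells, and 40 to 41 higher and 5 to 7 lower in granulosa cells. The germ against other types contrast of Kit ranged from 3.78 to 8.64, the granulosa contrast of Kitl from 4.05 to 4.27, Kitl by Amh or Inhbb from 0.47 to 0.74, Kit by Zp3 state from 0.12 to 0.38 and Kit by RNA content from -0.13 to 1.63. With the replicate block, genes called with Kitl among granulosa cells rose from 0 to 3, the counts of genes called between Amh or Inhbb states and in both germ splits moved by over 1.5 times, and Kit between mesothelial and endothelial cells passed. The block changed no other call of Kit or Kitl between pairs of types or between the splits. Genes called with Kitl were 2 with no filter and 2 with doublets kept. Genes called with Kit among interstitial cells were 1 under DESeq2 and 5 with doublets kept. Thinning left 6 pairs called for Kitl. Genes of the list higher in germ cells were 12 with thinning, and those lower were 29 under DESeq2, 19 with stricter gates, 3 with pure gates, 7 with thinning, 17 with Upk3b first, 26 by clusters, 21 by clusters with Upk3b first and 30 against the summed others. In granulosa cells, 10 were higher with thinning. Those lower there were 10 under DESeq2, 4 with stricter gates, 1 with pure gates, 1 with thinning, 6 with Upk3b first, 8 by clusters, 9 by clusters with Upk3b first and 21 against the summed others. For these settings, and for the left-out libraries, the share of all genes is not given. The shifts in these counts are therefore not a result about the list. Kitl of granulosa against mesothelial cells, which was not called, ran from -0.30 to 0.19 when a library was left out and turned to 0.14 with no filter, 0.058 with doublets kept, 1.08 with looser gates, 0.52 with pure gates and 0.35 with thinning. Against endothelial cells it turned to -0.19 with thinning. The causes of these shifts were not tested.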
